A study of Mus musculus with 4 samples.

Results

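Transcripts of 10 regulators of haematopoietic stem cell (HSC) self-renewal were examined in bulk RNA-seq of mouse bone marrow: Mecom, Hlf, Prdm16, Mllt3, Erg, Tal1, Lmo2, Mycn, Ndn and Fgd5. The genes were chosen by name for their roles in stem cells, with earlier results of these data known. All 10 were found among the 55399 genes of the deposited count table. Of these, 9 had enough reads to be tested, and Ndn did not. The 4 libraries were labelled as Lsk cells from marrow, the name usually given to cells that lack lineage markers and carry Sca-1 and Kit. The 2 Ppm1bfl/fl libraries carried loxP-flanked alleles of Ppm1b, which encodes a metal-dependent serine/threonine phosphatase, and the 2 others were labelled Ppm1bCKO, a conditional knockout. The Cre line and the cells in which it acts, the age and the sex of the animals, and whether replicates came from separate mice, are unstated in the labels. By its title the study asks how Ppm1b acts on HSC self-renewal, and the levels of these regulators were compared between its genotypes. P-values measure the spread between these libraries, which may be technical.

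An HSC renews itself when a division leaves at least one daughter with the stem cell programme intact, and that programme is held by transcription factors that bind the same enhancers and one another's genes. TAL1, a basic helix-loop-helix protein, binds E-box sequences together with E proteins and is bridged by LMO2 and LDB1 to GATA factors. ERG, an ETS factor, binds beside them, and MECOM, PRDM16, HLF and MLLT3 are further factors whose loss depletes HSCs. Several of these genes are also transcribed outside the stem cell. Tal1 and Lmo2 are active in erythroid, megakaryocytic and mast cells, and Erg, Fgd5 and Mecom in endothelium.

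The promoters of Erg, Hlf and Tal1 are shown because Erg and Hlf ranked the 4 libraries in the same order while Tal1 had its lowest library where these had their highest. Each is the 250 bases before a RefSeq start (GRCm38.p6), 5′ to 3′ on the gene's strand, in a window that held 0 annotated exon bases of the deposited table. Erg has 3 such windows and Tal1 has 2; those shown were picked after the motif search. Capitals mark matches, on either strand, to GATAA (GATA factors), CAGNTG (an E-box of TAL1 and E proteins) and GGAAG (ETS factors such as ERG).
Erg, chr16:95459349-95459598, minus strand: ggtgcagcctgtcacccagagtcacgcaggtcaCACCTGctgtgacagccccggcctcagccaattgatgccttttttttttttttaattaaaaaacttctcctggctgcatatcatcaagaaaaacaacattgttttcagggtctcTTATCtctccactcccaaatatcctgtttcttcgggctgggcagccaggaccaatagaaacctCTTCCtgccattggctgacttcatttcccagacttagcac
Hlf, chr11:90390918-90391167, minus strand: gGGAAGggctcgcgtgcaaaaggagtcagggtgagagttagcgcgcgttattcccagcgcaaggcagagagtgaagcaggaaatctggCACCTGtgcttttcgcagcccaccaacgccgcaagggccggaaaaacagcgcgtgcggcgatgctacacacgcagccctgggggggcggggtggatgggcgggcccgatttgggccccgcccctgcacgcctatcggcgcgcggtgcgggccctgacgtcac
Tal1, chr4:115056176-115056425, plus strand: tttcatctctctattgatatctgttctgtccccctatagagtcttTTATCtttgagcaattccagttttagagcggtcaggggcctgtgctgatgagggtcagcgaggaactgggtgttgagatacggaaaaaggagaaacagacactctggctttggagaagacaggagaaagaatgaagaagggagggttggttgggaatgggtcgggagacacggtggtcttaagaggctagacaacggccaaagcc

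The Erg window shown held 1 match to each of the 3 motifs, and no match overlapped another. Of the Erg windows not shown, chr16:95586594-95586843 held 0 matches to any motif and chr16:95530366-95530615 held GGAAG alone. The Hlf window held the E-box and the ETS letters, and this upstream Tal1 window held the GATA letters alone. The Tal1 window not shown, chr4:115057561-115057810, held GGAAG alone. RefSeq promoters were matched for 9 of the 10 genes, with 14 windows in all. GATAA was found in 4 of the 14 windows, CAGNTG in 5 and GGAAG in 8. Over all 32851 windows of the same length, the shares were 22.6%, 44.8% and 64.1%. These matches describe letters and do not show binding.

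None of the 9 tested regulators passed the test for a difference between the genotypes, and the 2 most abundant, Lmo2 and Tal1, had nearly equal means. Log2 fold changes (Ppm1bCKO over Ppm1bfl/fl) ran from -0.46 for Mycn to 0.024 for Lmo2, and 8 of the 9 were negative, where 50.4% of all tested genes were. Their median was -0.12, against -0.0032 over all 16393 tested genes. By edgeR's quasi-likelihood test, 0 of the 9 passed an adjusted p of 0.05, where 0.372% of all tested genes did, and 0 had an unadjusted p under 0.05, where 6.44% did. DESeq2 and limma-voom also called 0 of the 9, where they called 1.2% and 0.311% of all genes they tested. The libraries of the genotypes were separate for 1 of the 9, Mycn, where 41.1% of all tested genes were separate and 20.6% were separate and lower in the libraries labelled Ppm1bCKO, as Mycn was. In all 9 genes the larger of the within-genotype folds between replicates exceeded the fold between genotype means. The share over all tested genes was 77.8%, from folds taken after adding 0.1 CPM, which was not added for the 9. Without Ppm1bfl/fl replicate 1 the median over the 9 was -0.066 and 5 were negative, and without Ppm1bfl/fl replicate 2 it was -0.41.

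**Figure D1:**
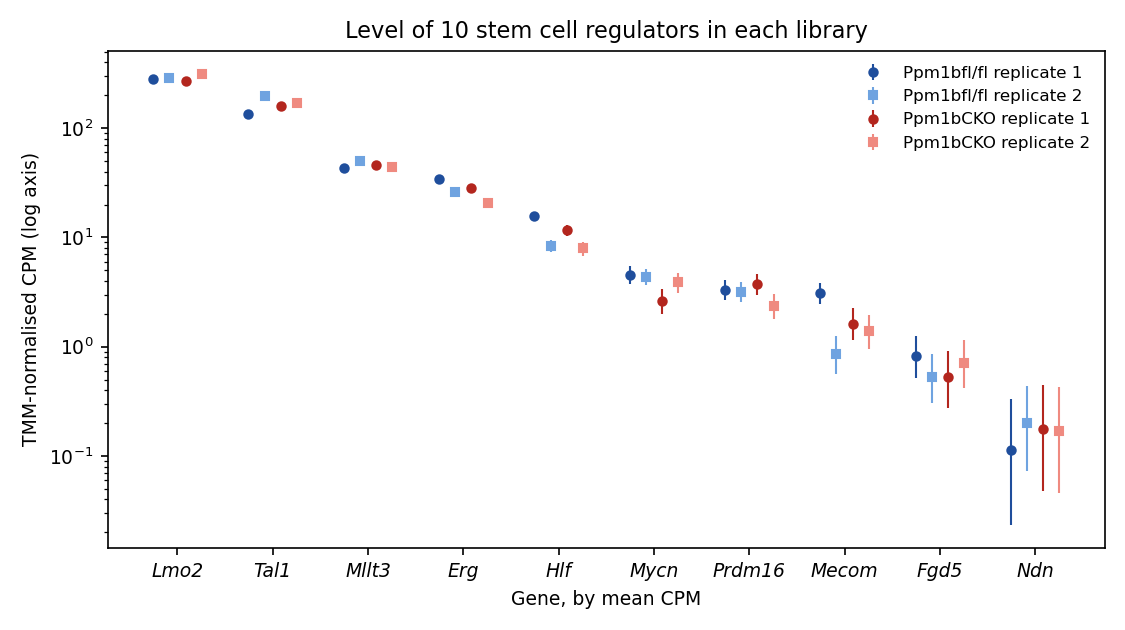
Level of each of the 10 regulators in each library, as counts per 1000000 counts, with library sizes scaled by TMM factors (CPM), on a log axis; bars are exact 95% Poisson intervals of the counts and cover counting error only. Lmo2 lies between 272 and 309.9 CPM and Ndn between 0.113 and 0.199 CPM, and blue and red points overlap in every gene but Mycn.

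The libraries held RNA of other marrow cells, so each level is an average over a mixture, in which fewer cells of a type and less RNA per cell cannot be told apart. Total counts ran from 22393973 to 30045382. Kit ran from 121 to 228 CPM and Ly6a, which encodes Sca-1, from 17.7 to 22.2 CPM, while Igha of plasma cells reached 10296 CPM and Hbb-bs of erythroid cells 7038 CPM. A list of 7 surface genes of stem and progenitor cells held Kit, Ly6a, Flt3, Cd34, Cd48, Slamf1 and Procr, and all had reads. Their summed level was 488 to 574 CPM in Ppm1bfl/fl and 443 to 499.9 CPM in the libraries labelled Ppm1bCKO. Kit and Cd34 (118 to 137 CPM) led this sum, so it does not measure the sorted fraction as such. Ppm1b itself stood at 80.8 and 82.5 CPM in Ppm1bfl/fl, against 84.3 and 121 CPM in the pair labelled Ppm1bCKO. Its count covers all exons together and cannot show whether part of the gene was deleted, so genotype rests on the labels. Ppm1bCKO replicate 2 stood farthest from the others, with root mean square log2 distances of 0.49 to 0.62, where the remaining pairs lay at 0.32 to 0.38.

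Per kilobase of exon, Lmo2 was the most abundant of the 10, at 133 ± 7.29 CPM per kb (SD over 4 libraries), followed by Tal1 at 37.8 ± 5.58. Erg came next with 7.90 ± 1.59 CPM per kb and Mllt3 after it with 3.84 ± 0.26. Hlf had 1.62 ± 0.53 and Mycn 1.17 ± 0.27 CPM per kb, and these neighbours overlapped, with Hlf higher in 3 of 4 libraries. Prdm16 followed at 0.338 ± 0.062 CPM per kb. Mecom (0.141 ± 0.078) and Fgd5 (0.103 ± 0.023) overlapped, with Mecom higher in 2 of 4 libraries. Ndn was lowest at 0.044 ± 0.0099 CPM per kb. All other neighbours in this order were separate in their ranges over the 4 libraries, so the order from Lmo2 through Mllt3 was the same in each library.

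Tal1, Lmo2 and Erg encode proteins of one enhancer-bound group of blood factors. Lmo2 (ENSMUSG00000032698.15, chromosome 2, 103957986 to 103981878, mm10), the LIM-only bridge of the complex, stood at 284 and 288 CPM in Ppm1bfl/fl replicates 1 and 2, against 272 and 309.9 CPM in Ppm1bCKO replicates 1 and 2. The difference on the log2 scale was 0.024 ± 0.17 (SE; edgeR, adjusted p = 0.971), with a 95% interval of 0.782-fold to 1.32-fold. The libraries labelled Ppm1bCKO lay on either side of both Ppm1bfl/fl libraries, and all 4 were within 1.14-fold of each other. Lmo2 thus varied least among the 10.

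Tal1 (ENSMUSG00000028717.12, chromosome 4, 115056426 to 115071755) stood at 136 and 195 CPM in Ppm1bfl/fl, against 159 and 171 CPM in the pair labelled Ppm1bCKO. The Ppm1bfl/fl libraries enclosed the others and differed 1.43-fold between themselves, while the genotype means were 165 ± 41.4 and 165 ± 8.46 CPM (SD, n = 2). The log2 difference was -0.00037 ± 0.20 (edgeR, adjusted p = 1.00), with a 95% interval of 0.728-fold to 1.37-fold. Among erythroid markers, 14 of the 15 listed were in the table and all had reads. Their summed level was 8979 and 15307 CPM in Ppm1bfl/fl, against 12821 and 17515 CPM in the pair labelled Ppm1bCKO. The library lowest in Tal1 was thus also lowest in this sum. The globin genes Hbb-bs and Hba-a1 led it, at 2783 and 1779 CPM in that library. Over the 14 tested erythroid markers, log2 fold changes were positive for 7 and negative for 7 (median -0.0048). The part of erythroid cells in the Tal1 level was not tested.

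Erg (ENSMUSG00000040732.20, chromosome 16, 95359169 to 95586593) stood at 34.1 and 26.0 CPM in Ppm1bfl/fl, against 28.6 and 20.9 CPM in the pair labelled Ppm1bCKO. The highest library was a Ppm1bfl/fl and the lowest a Ppm1bCKO library, but the remaining ones crossed. The difference on the log2 scale was -0.28 ± 0.23 (edgeR, adjusted p = 0.742), with a 95% interval of 0.573-fold to 1.18-fold. Endothelial cells also transcribe Erg, and 15 of 16 endothelial markers had reads in every library. Cdh5, the junctional cadherin that defines this cell type, stood at 3.01 and 2.62 CPM in Ppm1bfl/fl, against 4.84 and 5.94 CPM in the pair labelled Ppm1bCKO. The log2 fold change of Cdh5, 0.94 ± 0.29, was the highest of the list and did not pass (edgeR adjusted p = 0.566). Of the 12 endothelial markers tested, 7 were positive and 5 negative. Tie1, of the same list, went the other way (-0.22 ± 0.28). It stood at 19.8 and 12.2 CPM in Ppm1bfl/fl, against 15.5 and 11.8 CPM in the pair labelled Ppm1bCKO. The endothelial factor gene Sox17 had 0 counts in the first replicate of each genotype. The summed level of the list was 155 to 189 CPM in Ppm1bfl/fl and 183 CPM in each library labelled Ppm1bCKO, led by Pecam1, which blood cells also carry. The part of endothelial cells in the Erg level was not tested.

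Genes whose proteins share enhancers or complexes with TAL1, LMO2 and ERG did not pass the test either. All 15 genes of this list were tested, 0 changed, log2 fold changes were positive for 6 and negative for 9, and their median was -0.035. Here and for each list below, the shares over all tested genes were 0.372% changed and 50.4% negative. The smallest p belonged to Lmo4, a LIM-only relative of Lmo2 (0.31 ± 0.19, edgeR adjusted p = 0.717). Cbfb, the partner of RUNX factors (0.21 ± 0.16), came next. Gfi1b, which encodes a repressor active in erythroid and megakaryocytic cells (-0.23 ± 0.18), followed. Gata2, which encodes a GATA factor of stem and mast cells, was the gene most like Erg over the 4 libraries among 112 partner and stem cell genes, with a root mean square difference of 0.031 in centred log2 CPM. Gata2 stood at 139 and 104 CPM in Ppm1bfl/fl, against 116 and 88.8 CPM in the pair labelled Ppm1bCKO.

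Mecom and Prdm16 encode related zinc-finger proteins with a PR domain, and both were rare here. Mecom (ENSMUSG00000027684.16, chromosome 3, 29951296 to 30548008) had 83 and 26 counts in Ppm1bfl/fl and 37 and 33 counts in the libraries labelled Ppm1bCKO. This amounted to 3.12, 0.862, 1.63 and 1.39 CPM in the same order. Ppm1bfl/fl replicate 1 stood above the rest, and its counting interval of 2.48 to 3.87 CPM did not meet that of Ppm1bfl/fl replicate 2, 0.563 to 1.26 CPM. Replicates of that genotype thus differed 3.62-fold, and the libraries labelled Ppm1bCKO lay between them. The log2 fold change of Mecom was -0.39 ± 0.57 (edgeR adjusted p = 0.836), and its 95% interval reached from 0.308-fold to 1.89-fold. It became 0.80 without Ppm1bfl/fl replicate 1 and -1.05 without replicate 2, neither past the threshold (edgeR adjusted p = 1.00 for each).

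The gene most like Mecom among the 112 was Slamf1, which encodes the HSC surface protein CD150, with a root mean square difference of 0.14. Slamf1 stood at 10.6 and 4.01 CPM in Ppm1bfl/fl, against 5.94 and 5.48 CPM in the pair labelled Ppm1bCKO. Megakaryocyte and platelet markers, 13 of 14 of which had reads in every library, summed to 1147 and 502 CPM in Ppm1bfl/fl and to 707 and 788 CPM in the pair labelled Ppm1bCKO. They too were highest in Ppm1bfl/fl replicate 1 and lowest in replicate 2. Their part in the Mecom level was not tested.

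Prdm16 (ENSMUSG00000039410.16, chromosome 4, 154316125 to 154636873) stood at 3.31 and 3.18 CPM in Ppm1bfl/fl, against 3.74 and 2.36 CPM in the pair labelled Ppm1bCKO. The Ppm1bfl/fl pair nearly coincided and lay between the others, so Prdm16 did not share the spread of Mecom within Ppm1bfl/fl. The difference on the log2 scale was -0.091 ± 0.33 (edgeR, adjusted p = 0.942), with a 95% interval of 0.552-fold to 1.60-fold. A short antisense gene shared 81 exon bases with Mecom and a protein-coding gene on the other strand 109 with Prdm16, but these had at most 1 count in any library.

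Corepressors and lysine methyltransferases that act with or beside MECOM and PRDM16 included 0 changed genes among 17 tested, with a median log2 fold change of -0.13. The smallest p belonged to the PR-domain gene Prdm2 (-0.46 ± 0.22, edgeR adjusted p = 0.717), the deacetylase gene Hdac2 (0.34 ± 0.18) and Prdm15 (-0.30 ± 0.21).

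Hlf (ENSMUSG00000003949.16, chromosome 11, 90336536 to 90390895), a bZIP transcription factor gene whose activity is concentrated in HSCs, stood at 15.6 and 8.29 CPM in Ppm1bfl/fl, against 11.6 and 7.92 CPM in the pair labelled Ppm1bCKO. The first replicate of each genotype was the higher and the second the lower, so the genotypes overlapped. Counting intervals of Ppm1bfl/fl replicates 1 and 2, 14.1 to 17.1 and 7.29 to 9.38 CPM, were separate. The log2 difference was -0.29 ± 0.33 (edgeR, adjusted p = 0.797), with a 95% interval of 0.481-fold to 1.39-fold, and it became 0.23 without Ppm1bfl/fl replicate 1 (edgeR adjusted p = 1.00). Hlf was most like Ikzf2, which encodes the zinc-finger factor HELIOS (root mean square difference 0.13), at 29.2 and 19.9 CPM in Ppm1bfl/fl, against 25.2 and 16.4 CPM in the pair labelled Ppm1bCKO.

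Among 8 tested bZIP relatives of Hlf 0 changed, and the median log2 fold change was 0.029. Cebpe, a factor of late granulocyte development, had the smallest p (0.63 ± 0.23, edgeR adjusted p = 0.717), followed by Cebpg (0.19 ± 0.17) and the myeloid factor gene Cebpa (-0.14 ± 0.16).

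Mllt3 (ENSMUSG00000028496.17, chromosome 4, 87769925 to 88033364) encodes a YEATS-domain reader of acylated histones that recruits elongation factors and the H3K79 methyltransferase DOT1L. It stood at 43.6 and 50.5 CPM in Ppm1bfl/fl, against 46.1 and 44.2 CPM in the pair labelled Ppm1bCKO. The Ppm1bfl/fl libraries again enclosed the others, and all 4 lay within 1.16-fold. The log2 difference was -0.061 ± 0.17 (edgeR, adjusted p = 0.921), with a 95% interval of 0.734-fold to 1.25-fold. Its closest gene over the libraries was the corepressor gene Cbfa2t3 (root mean square difference 0.015), at 109.6 and 126 CPM in Ppm1bfl/fl, against 118 and 112 CPM in the pair labelled Ppm1bCKO.

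Most listed genes of elongation and chromatin factors linked to MLLT3 had lower means in the libraries labelled Ppm1bCKO, but none passed the test. Log2 fold changes were negative for 12 of the 14 tested genes (median -0.20), where 50.4% of all tested genes were. The genotypes were separate for 9, where 41.1% of all tested genes were, and 1 gene had an unadjusted p under 0.05, where 6.44% did. Kmt2a, the MLL1 methyltransferase gene, stood at 169 and 149 CPM in Ppm1bfl/fl, against 129 and 74.6 CPM in the pair labelled Ppm1bCKO. The lowest library was Ppm1bCKO replicate 2, and the log2 fold change of Kmt2a was -0.64 ± 0.25 (edgeR adjusted p = 0.717). Dot1l (-0.41 ± 0.21) and the elongation factor gene Ell (-0.34 ± 0.18) came next. Without Ppm1bCKO replicate 2, 8 of the 14 were negative and the median was -0.15.

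Mycn (ENSMUSG00000037169.15, chromosome 12, 12936093 to 12941914), a MYC family gene that acts with Myc in HSC proliferation and survival, was the only one of the 9 whose genotypes were separate. It had 121 and 131 counts in Ppm1bfl/fl, or 4.55 and 4.34 CPM, against 59 and 92 counts in the pair labelled Ppm1bCKO, or 2.60 and 3.88 CPM. Both of the latter were lower, but the gap between Ppm1bfl/fl replicate 2 and Ppm1bCKO replicate 2 was smaller than their counting intervals, 3.63 to 5.15 and 3.12 to 4.75 CPM. The log2 difference was -0.46 ± 0.31 (edgeR, adjusted p = 0.723), with a 95% interval of 0.446-fold to 1.19-fold. It was -0.20 without Ppm1bCKO replicate 1 and -0.78 without Ppm1bCKO replicate 2, and neither passed (edgeR adjusted p = 0.702 and 0.990). Mycn was most like Hoxb4 (root mean square difference 0.11), a homeobox gene that expands HSCs when forced, at 4.81 and 4.34 CPM in Ppm1bfl/fl, against 3.17 and 4.47 CPM in the pair labelled Ppm1bCKO.

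In the network of MYC, MAX and their partners, 0 of 11 tested genes changed and the median log2 fold change was 0.011. The genes with the smallest p were the MYC antagonists Mxd4 (-0.31 ± 0.18, edgeR adjusted p = 0.717) and Mxd1 (0.28 ± 0.17), which had opposite signs, and Mycl (0.36 ± 0.24).

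Fgd5 and Ndn were close to the limit of detection. Fgd5 (ENSMUSG00000034037.14, chromosome 6, 91978878 to 92076004) encodes a guanine nucleotide exchange factor for CDC42 rather than a transcription factor, and its locus is used in reporter mice to mark HSCs. It had 22 and 16 counts in Ppm1bfl/fl and 12 and 17 in the libraries labelled Ppm1bCKO, or 0.827, 0.531, 0.528 and 0.716 CPM. All 4 counting intervals overlapped, the widest from 0.518 to 1.25 CPM in Ppm1bfl/fl replicate 1. The log2 difference was -0.12 ± 0.53 (edgeR, adjusted p = 0.954), and the 95% interval from 0.401-fold to 2.12-fold allows more than a doubling.

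Ndn (ENSMUSG00000033585.5, chromosome 7, 62346569 to 62350262) encodes necdin, an imprinted growth suppressor linked to HSC quiescence. It had 3 and 6 counts in Ppm1bfl/fl and 4 and 4 in the libraries labelled Ppm1bCKO, or 0.113, 0.199, 0.176 and 0.169 CPM. Counting intervals reached from 0.023 to 0.450 CPM over the libraries, and a difference was not detectable at this depth.

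**Figure D2:**
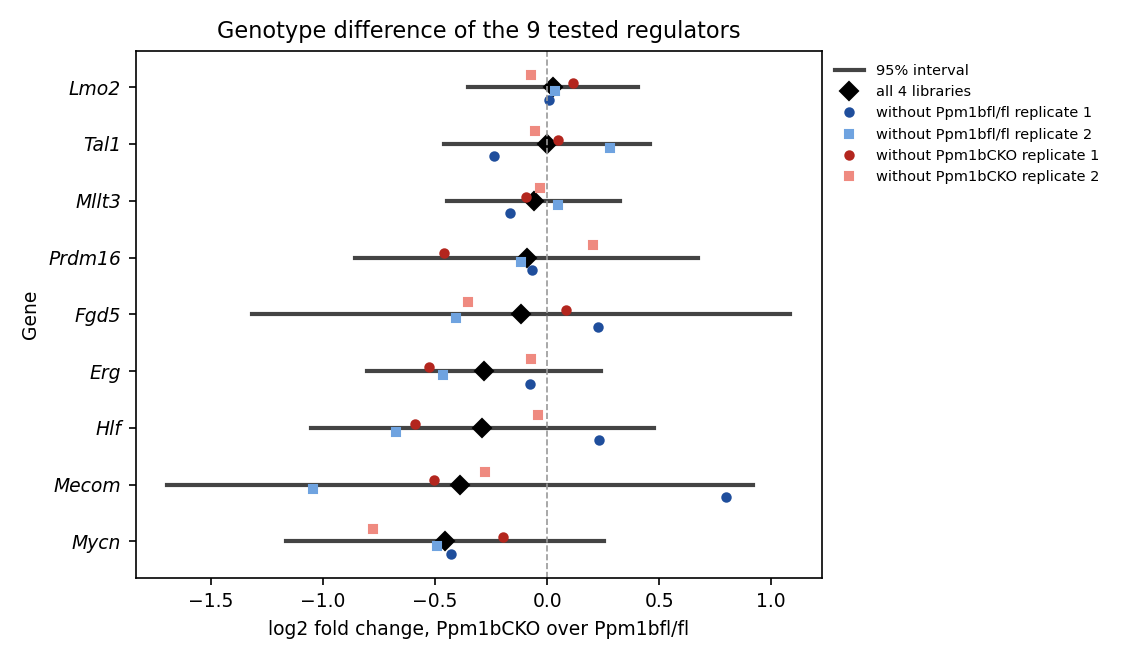
Log2 fold change of the 9 tested regulators from all 4 libraries (diamonds) with 95% intervals from edgeR's fit (lines), and the same with each library left out (coloured points). Every interval spans 0, and Mecom moves from -1.05 to 0.80 with the Ppm1bfl/fl library left out.

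Several regulators ranked the libraries in an order other than by genotype. Erg and Hlf had the same order, highest in Ppm1bfl/fl replicate 1, then Ppm1bCKO replicate 1, Ppm1bfl/fl replicate 2 and Ppm1bCKO replicate 2. On the log2(CPM + 0.1) scale, Ppm1bfl/fl replicate 1 lay 0.57 above the gene's mean for Hlf, 0.94 for Mecom and 0.34 for Erg, but 0.27 below it for Tal1 (-0.27). It was the highest library for 5 of the 9 tested genes and the lowest for 2. Kit, a receptor to which the name Lsk refers, was also highest there (228 CPM) and lowest in Ppm1bCKO replicate 2 (121 CPM). Between genotypes, its log2 difference was -0.46 ± 0.22 (edgeR, adjusted p = 0.717). Ly6a did not share this order, being highest and nearly equal in Ppm1bCKO replicate 2 and Ppm1bfl/fl replicate 1, at 22.2 CPM in each. Its log2 fold change was -0.017 ± 0.21. The part of stem and progenitor cell content in these orders was not tested.

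**Figure D3:**
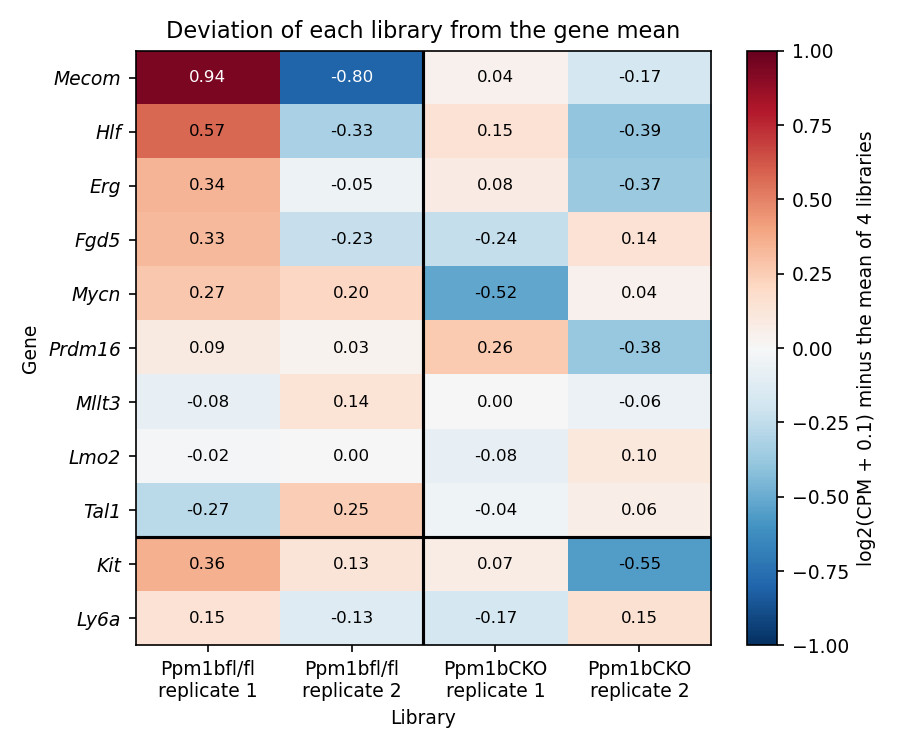
Deviation of each library from the mean of 4 for the 9 tested regulators and, below the line, Kit and Ly6a, in log2(CPM + 0.1); red is above and blue below the gene's mean. Ppm1bfl/fl replicate 1 is reddest for Mecom (0.94) and Hlf (0.57) and blue for Tal1 (-0.27).

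Other regulators of HSCs, which the 10 genes are known to work beside, also included 0 changed genes. Of 28 tested transcription and chromatin regulators, log2 fold changes were positive for 10 and negative for 18 (median -0.16), and 2 genes had an unadjusted p under 0.05, a share near the 6.44% of all tested genes. Foxo1, which encodes a stress-resistance factor that is also needed in early B cells, had the smallest p (0.68 ± 0.20, edgeR adjusted p = 0.517). It stood at 31.8 and 27.8 CPM in Ppm1bfl/fl, against 40.6 and 54.8 CPM in the pair labelled Ppm1bCKO, so both of the latter were higher. B-lineage markers, all 10 with reads, summed to 229 and 231 CPM in Ppm1bfl/fl and to 339.95 and 711 CPM in the pair labelled Ppm1bCKO, and their part in the Foxo1 values was not tested. The histone methyltransferase gene Kmt2d (-0.44 ± 0.19) followed.

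HSC surface and cytoplasmic genes gave 0 changed among 19 tested, 7 positive and 12 negative, with a median of -0.14. Those with the smallest p were Kit, given above, and Vwf, which marks platelet-biased HSCs, megakaryocytes and endothelium (-0.63 ± 0.35, edgeR adjusted p = 0.717). Like Mecom, Vwf was higher in replicate 1 than in replicate 2 of Ppm1bfl/fl. Vwf stood at 111 and 48.7 CPM in these libraries, against 57.4 and 45.7 CPM in the pair labelled Ppm1bCKO.

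**Figure D4:**
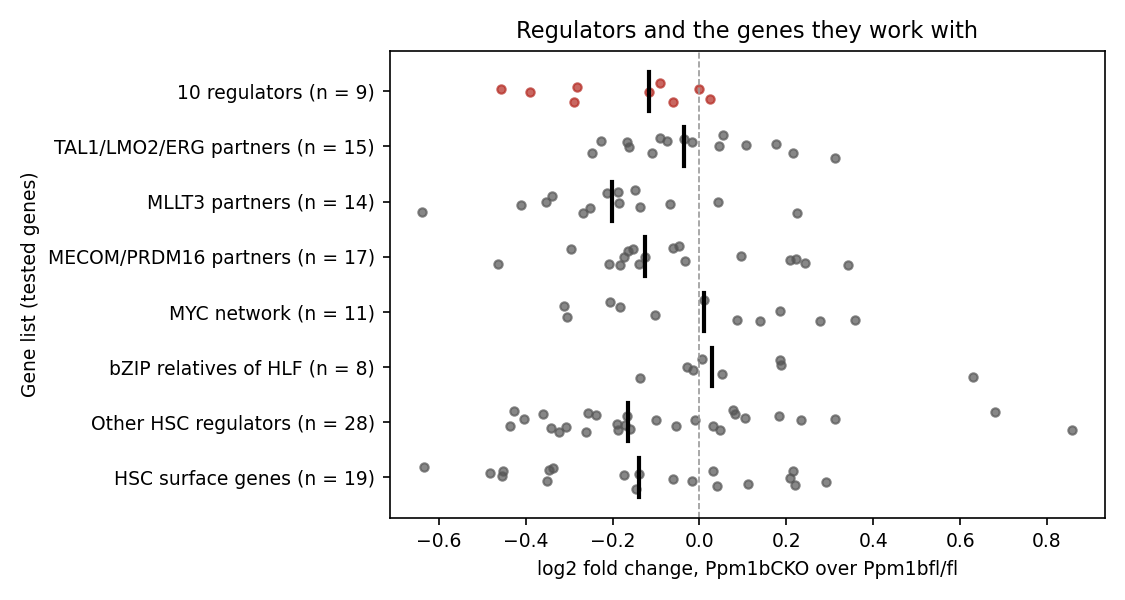
Log2 fold changes (Ppm1bCKO over Ppm1bfl/fl) of the 9 tested regulators (red) and of the tested genes in 7 lists of partners and other stem cell genes (grey); black bars are medians. Medians lie between -0.20 and 0.029, and no gene shown passed the adjusted threshold.

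Across these 7 lists together, 0 of 112 tested genes changed, where 0.372% of all tested genes did, and 4 had an unadjusted p under 0.05, where 6.44% did. With Ppm1bCKO replicate 1 left out, edgeR called 19 of the 112, 4 higher and 15 lower, and 0 of the 9 regulators, where 19.4% of all genes were called. In that setting Ppm1bCKO replicate 2, the library that stood apart, alone represents its genotype and is assumed to vary like the Ppm1bfl/fl pair. Those called included Aff1, Aff4, Ccnt2, Dot1l, Ell and Kmt2a, all lower and all from the list of factors linked to MLLT3. With Ppm1bfl/fl replicate 2 left out, 1 of the 112 was called, Vwf, which was lower, where 1.25% of all genes were called.

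The remaining regulators' closest genes were found among the same 112. Prdm16 was most like the MLLT3 partner gene Aff1 (root mean square difference 0.058), at 183 and 191 CPM in Ppm1bfl/fl, against 202 and 138 CPM in the pair labelled Ppm1bCKO. Tal1 was most like the receptor gene Gprc5c (0.041), which stood near 1 CPM, between 0.827 and 1.23 CPM. Lmo2 was most like the MYC antagonist gene Mxi1 (0.016), between 67.0 and 76.9 CPM, and Fgd5 most like the bZIP gene Tef (0.10), between 19.7 and 25.4 CPM. With 4 libraries these likenesses describe the samples at hand and carry no test.

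Intervals of the genotype difference were narrowest for Lmo2 and Mllt3 and widest for Mecom and Fgd5, which had 12 to 83 counts per library. For Lmo2, Mllt3 and Tal1, with 1047 to 8698 counts per library, the 95% intervals hold no difference beyond 1.37-fold either way. For Mecom the interval includes a more than 3-fold lower level.

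Markers of further cell types gave the surroundings of these levels. Summed plasma cell markers were 21654 and 12983 CPM in Ppm1bfl/fl, against 4020 and 5406 CPM in the pair labelled Ppm1bCKO. Macrophage markers summed to 867 and 901 CPM against 517 and 639 CPM, and eosinophil markers to 3013 and 3324 CPM against 4540 and 7963 CPM. Mast cell and basophil markers, a further source of Tal1, Lmo2 and Gata2 transcripts, ran from 1128 to 1275 CPM, neutrophil markers from 4497 to 5468 CPM and stromal markers from 417 to 765 CPM over the 4 libraries. Every marker of these lists had reads in all 4 libraries except Cma1 and Tpsb2 of the mast cell list, and their part in the levels of the regulators was not tested.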

How the data were processed

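RNA was sequenced from 4 marrow libraries labelled Lsk, 2 per genotype. TRIzol extraction of total RNA and TruSeq RNA library preparation are recorded in the labels' protocols. The authors deposited raw counts, in whole numbers, with each gene's summed exon length. The submitters' processing notes name featureCounts 2.0.1, HISAT2 2.2.0 and Trim Galore 0.6.7, with build mm10. Neither strand setting nor annotation release was given in the sources. Symbols came from GENCODE by Ensembl identifier (55139 of 55399 matched, 260 did not).

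Genotypes were compared by edgeR 4.0.16 under R 4.3.3 (TMM, filterByExpr with a minimum count of 10 and minimum total of 15, robust quasi-likelihood fit, no covariates), and p-values were adjusted by Benjamini-Hochberg over 16393 genes. Standard errors and 95% intervals come from that fit. CPM is TMM-normalised. A count of 0 allows up to 3 counts (0.0995 to 0.132 CPM). Poisson intervals and this floor cover counting error only. Replicates differed beyond sampling noise (chi-square per degree of freedom 25.5 and 53.5), so neither pair was taken for 1 library. On simulated counts of 16041 genes the fit called 42 of 100 genes set to 2-fold, 84 of 100 set to 4-fold and 5 unchanged genes. The simulated spread followed the trend over all genes and was equal in both genotypes. In the data the pair labelled Ppm1bCKO lay farther apart than the Ppm1bfl/fl pair (root mean square log2 distance 0.49 against 0.32), so these shares may not hold for it.

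The regulators and all gene lists were chosen with earlier results of these data known. Named genes were the 10 regulators, the 3 genes with the smallest p in each partner list and any past the threshold, the gene of those lists closest to each regulator, the 2 most abundant genes of each cell type list, Kit and Ly6a; some genes that this rule selects are not reported here. Others named, such as those called with a library left out, were chosen after their values were seen. Of the listed names, 2 (Prdm3 and Ahsp) were not matched to a symbol. Alternatives were DESeq2 1.42.0 and its size factors, limma-voom (limma 3.58.1), other filters (none, or a CPM of at least 1 in 2 libraries), the replicate number as a block and each library left out. Leaving out immunoglobulin genes was added after the data were seen.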

Additional observations from a re-analysis of the deposited data

How the results depend on the processing

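In every alternative, 0 of the tested regulators changed. The count over all genes, 61, was 188 with DESeq2, 311 with no low-count filter, 207 with the replicate number as a block, 0 (989 at an unadjusted p under 0.05, edgeR) with immunoglobulin genes left out, and 94 to 3336 with 1 library left out. Replicate numbers share only a label, and deviations of same-numbered libraries correlated at 0.093 over 12426 genes. The block moved no regulator past the threshold.

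Some log2 fold changes took the other sign, none of them called, and the cause was not tested. With 1 library left out the ranges were -1.05 to 0.80 for Mecom, -0.68 to 0.23 for Hlf, -0.46 to 0.20 for Prdm16, -0.17 to 0.050 for Mllt3, -0.24 to 0.28 for Tal1, -0.073 to 0.11 for Lmo2 and -0.41 to 0.22 for Fgd5. The sign turned without Ppm1bfl/fl replicate 1 for Mecom, Hlf and Fgd5, without Ppm1bfl/fl replicate 2 for Mllt3 and Tal1, without Ppm1bCKO replicate 1 for Tal1 (0.049) and Fgd5 (0.084), and without Ppm1bCKO replicate 2 for Prdm16 and Lmo2. Tal1 was also positive with limma-voom (0.023) and with the replicate block (0.021). Erg and Mycn stayed negative in all 11 alternatives, from -0.53 to -0.072 and from -0.78 to -0.20. The smallest adjusted p of any regulator was 0.086, for Erg without Ppm1bCKO replicate 1 by edgeR. Counts per library were lowest for Ndn, which was too low to test, Fgd5 and Mecom. With 2 libraries per genotype a two-sided exact permutation test cannot go below 0.333.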
